A study of Homo sapiens with 6 samples.

Results

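The genes described here are the 5 subunits of the transcription factor NF-kB (NFKB1, NFKB2, RELA, RELB and REL), 3 inhibitory IkB genes (NFKBIA, NFKBIB and NFKBIE), and TNFAIP3 and TRAF1, which act upstream of NF-kB and are themselves among its targets. They were chosen by name, with earlier results of these data known, and are 10 of the 58735 genes in the deposited table. Poly(A)-selected RNA from MDA-MB-231 cells was sequenced in 6 samples. Wild-type cells received either vehicle (3 samples) or SCH, an extract of Salvia chinensis Benth, at 100 mg/l (3 samples), both for 24 h, and the submitters describe the samples of a group as biological repeats. MDA-MB-231 is a human line from a triple-negative breast cancer, a tumour class without estrogen receptor, progesterone receptor or HER2 amplification, so every value here comes from 1 cell line at 1 dose and 1 time. Total counts assigned to genes ran from 18334857 to 20291379 in the vehicle samples and from 16836369 to 18414924 in the SCH samples.

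Markers of the line and of other cell types were read first. VIM, CD44, AXL, CAV1 and MSN, genes of mesenchymal-like breast cancer cells, were abundant, with a summed level of 5095, 5177 and 5132 normalized CPM (counts scaled by library size and by edgeR's TMM factor) in the vehicle samples and 3657, 3698 and 3704 CPM in the SCH samples. In vehicle AXL had the highest CPM of them, on a scale that is not divided by gene length. SPARC, the sixth gene of that list, had at most 2 counts in any sample. Of the 7 luminal or HER2 markers, ESR1 had at most 4 counts, PGR at most 1 and CDH1 at most 6, while ERBB2, GATA3, FOXA1 and EPCAM were detected at levels that allowed a test. The summed level of these 7 genes was 108, 108 and 104 CPM in vehicle and 125, 112 and 113 CPM in SCH, with ERBB2 the highest in CPM. Of the 9 leukocyte markers examined, MS4A1 and HBB had 0 counts in every sample and CD3E at most 1. The summed leukocyte marker level was 4.41, 4.85 and 3.49 CPM in vehicle and 2.69, 3.11 and 2.0 CPM in SCH. Of these genes, PTPRC had 39, 37 and 34 counts in vehicle and 4, 9 and 3 in SCH. Of the 5 fibroblast markers, DCN had 0 counts throughout, LUM at most 1 and COL1A2 at most 2, and PDGFRB and COL1A1 were tested. Their summed level was 6.92, 6.13 and 5.85 CPM in vehicle and 9.75, 10.0 and 8.83 CPM in SCH. COL1A1, the highest of them in CPM, rose by 0.76 on the log2 scale (adjusted p 4.26e-05), while PDGFRB did not pass (-0.08, adjusted p 0.838). In bulk RNA, fewer cells of a type and less RNA per cell cannot be told apart, and the part of these marker levels in the results below was not tested.

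NF-kB is a family of dimeric transcription factors. RELA, RELB and REL carry the transactivation domain, whereas NFKB1 and NFKB2 encode the precursors p105 and p100, which are processed to p50 and p52. In the canonical pathway, the IKK complex phosphorylates IkB proteins, these are degraded, and dimers such as RELA with p50 enter the nucleus. In the non-canonical pathway, the kinase NIK (MAP3K14) drives processing of p100, and RELB with p52 is the typical dimer. Many genes of the pathway are transcribed by NF-kB itself, so that the IkB genes and TNFAIP3 provide negative feedback. MDA-MB-231 is known as a line with constitutive NF-kB activity.

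After SCH, 8 of the 10 genes rose and none fell, against 29.3% of all 14736 tested genes that rose and 29.4% that fell (edgeR's quasi-likelihood test, Benjamini-Hochberg adjusted p under 0.05 over all tested genes). With 58.7% of all tested genes changed in either direction, a change as such was the common state of a gene in this comparison. The split depended on the scaling: of the changed genes 49.9% were higher in SCH, and with library size only 62.6% were (5519 of 8814), where 9 of the 10 members were called. The sizes differed widely within the family. TRAF1, NFKB2, RELB and NFKBIE were each raised by at least 1 on the log2 scale, which held for 3.89% of all tested genes. RELA, REL, NFKBIA and TNFAIP3 rose by 0.29 to 0.50, and NFKB1 and NFKBIB did not pass the threshold. The median log2 fold change of the 10 genes was 0.46, whereas that of all tested genes was close to 0 and their median absolute change was 0.31. The 3 SCH samples lay above the 3 vehicle samples in normalized CPM for the same 8 genes, and this was so for 31.1% of all tested genes (62.4% were apart in either direction).

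Because these genes are described as NF-kB targets, their promoters were searched for the kB consensus, the 10-base motif that NF-kB dimers bind, on both strands of RefSeq windows (GRCh38.p14) reaching from 250 bases before to 50 bases after each listed transcription start. Windows were found for 8 of the 10 genes, 15 windows in all. The consensus occurred in at least 1 window of NFKB1, NFKB2, REL, NFKBIA, NFKBIB and TNFAIP3, and in none of RELA or TRAF1. It occurred in 11.3% of all 35116 windows and in 17.4% of the 10351 tested genes with a window. Shown are the 200 bases before the start of NFKB1 (chr4:102501159-102501358, plus strand), which did not pass the threshold; of NFKB2 at both of its starts with a match (chr10:102394378-102394577 and chr10:102395505-102395704, plus strand); of NFKBIA (chr14:35404750-35404949, minus strand); of NFKBIB (chr19:38899769-38899968, plus strand), the other gene that did not pass; and of TRAF1 (chr9:120929172-120929371, minus strand), the gene with the highest rise of the 10 and no consensus match in its 3 windows. They are written 5′ to 3′ on the strand of the gene, with the consensus matches in capitals.
NFKB1: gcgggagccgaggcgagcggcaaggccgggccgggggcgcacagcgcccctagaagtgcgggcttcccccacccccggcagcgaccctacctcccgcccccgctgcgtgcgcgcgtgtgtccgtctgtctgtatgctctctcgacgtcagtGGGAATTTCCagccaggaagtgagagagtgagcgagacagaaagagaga
NFKB2, first of the windows with matches: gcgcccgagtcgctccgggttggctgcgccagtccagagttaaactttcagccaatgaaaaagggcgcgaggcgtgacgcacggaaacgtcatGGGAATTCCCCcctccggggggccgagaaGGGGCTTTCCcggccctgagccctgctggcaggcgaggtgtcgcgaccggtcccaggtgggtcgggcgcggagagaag
NFKB2, other window with matches: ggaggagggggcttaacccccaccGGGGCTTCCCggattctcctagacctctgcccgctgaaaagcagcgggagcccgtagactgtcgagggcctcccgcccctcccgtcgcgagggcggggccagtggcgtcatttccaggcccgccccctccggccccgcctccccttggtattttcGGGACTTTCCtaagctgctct
NFKBIA: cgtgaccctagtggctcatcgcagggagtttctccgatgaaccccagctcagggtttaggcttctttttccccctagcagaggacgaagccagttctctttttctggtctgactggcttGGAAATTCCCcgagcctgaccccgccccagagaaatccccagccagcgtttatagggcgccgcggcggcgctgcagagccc
NFKBIB: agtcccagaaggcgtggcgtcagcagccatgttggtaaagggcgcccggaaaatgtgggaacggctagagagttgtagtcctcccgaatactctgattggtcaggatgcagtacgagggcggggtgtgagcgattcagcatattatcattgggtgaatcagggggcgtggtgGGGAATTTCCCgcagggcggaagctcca
TRAF1: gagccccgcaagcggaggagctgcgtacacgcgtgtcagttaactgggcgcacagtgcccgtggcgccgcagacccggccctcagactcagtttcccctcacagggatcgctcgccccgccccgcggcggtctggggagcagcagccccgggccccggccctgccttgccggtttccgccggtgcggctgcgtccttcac
The match of NFKB1, GGGAATTTCC, began 49 bases before the start, and NFKBIB held the same 10 letters 28 bases before its start. NFKB2 held GGGACTTTCC 21 bases before one start, and GGGAATTCCC and GGGGCTTTCC 107 and 78 bases before another. In NFKBIA the match GGAAATTCCC began 81 bases before the start. Of the genes with a match, NFKB2 had a high rise and NFKBIA, REL and TNFAIP3 a moderate one. NFKB1 and NFKBIB, also with a match, did not pass the threshold. RELA and TRAF1, whose windows held no match, both rose. The part of these sites in the changes was not tested. These matches are letters in a window and not measured binding, and a window without one says only that these letters are not in it.

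NFKB1 encodes p105, the precursor of p50 (ENSG00000109320, GRCh38 chr4:102501329-102617302, plus strand). Its normalized CPM was 103, 96.1 and 98.2 in the vehicle samples and 109, 95.2 and 96.6 in the SCH samples. The highest sample and the lowest were both SCH samples, and the groups overlapped. The log2 fold change was 0.01 ± 0.058 (SE, n = 3 per group), with an adjusted p of 0.852 and a 95% interval from -0.11 to 0.13, so a rise of the size seen in NFKB2 lay outside the interval. NFKB1 spans 116 kb of the genome, the longest of the 10 genes.

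NFKB2 encodes p100, the precursor of p52 and an inhibitor of RELB dimers until it is processed (ENSG00000077150, chr10:102394110-102402529, plus strand). Its normalized CPM was 145, 150 and 135 in vehicle and 418, 393 and 383 in SCH. Every SCH sample was far above every vehicle sample, and the spread within each group was small beside the gap. The mean went from 143 ± 7.40 to 398 ± 18.0 CPM (SD, n = 3), a 2.78-fold rise, with a log2 fold change of 1.47 ± 0.052 (SE) and an adjusted p of 1.54e-16. Only 1.36% of the tested genes had a higher log2 fold change.

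RELB encodes the usual partner of p52 (ENSG00000104856, chr19:45001430-45038198, plus strand). It measured 37.6, 43.3 and 35.6 CPM in vehicle and 103, 95.4 and 100.5 CPM in SCH. The groups were well apart, although the vehicle samples varied more than for any other member, with a coefficient of variation of 10.3%. The log2 fold change was 1.36 ± 0.067 (SE, n = 3 per group), with an adjusted p of 6.15e-14. NFKB2 and RELB, the non-canonical pair, therefore rose by similar factors of 2.78 and 2.57.

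RELA encodes p65, the main transactivating subunit of the canonical pathway (ENSG00000173039, chr11:65653596-65663094, minus strand). Its normalized CPM was 146, 149 and 147 in vehicle and 187, 178 and 174 in SCH. The vehicle samples were nearly equal, and all SCH samples were above them. RELA rose by a log2 fold change of 0.29 ± 0.049 (SE, n = 3 per group), with an adjusted p of 2.83e-05. This rise was below the median absolute change of all tested genes. AP001362.2, on the opposite strand with 17 to 42 counts per sample, shares 9 bases of its exons.

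REL encodes c-Rel, a subunit best known from lymphocytes (ENSG00000162924, chr2:60881521-60931610, plus strand). It was the least abundant member, at 6.31, 6.46 and 6.92 CPM in vehicle and 8.43, 8.59 and 9.25 CPM in SCH. The groups did not overlap, on 116 to 176 counts per sample. The log2 fold change was 0.42 ± 0.12 (SE, n = 3 per group), with an adjusted p of 0.00514. On the log2(FPKM + 1) scale, which understates changes of low genes, the difference was 0.15. Of its annotated exonic bases, 43.3% also lie in exons of AC010733.2 on the same strand, a gene listed at 0 counts in every sample, so the level of REL is uncertain.

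**Figure D1:**
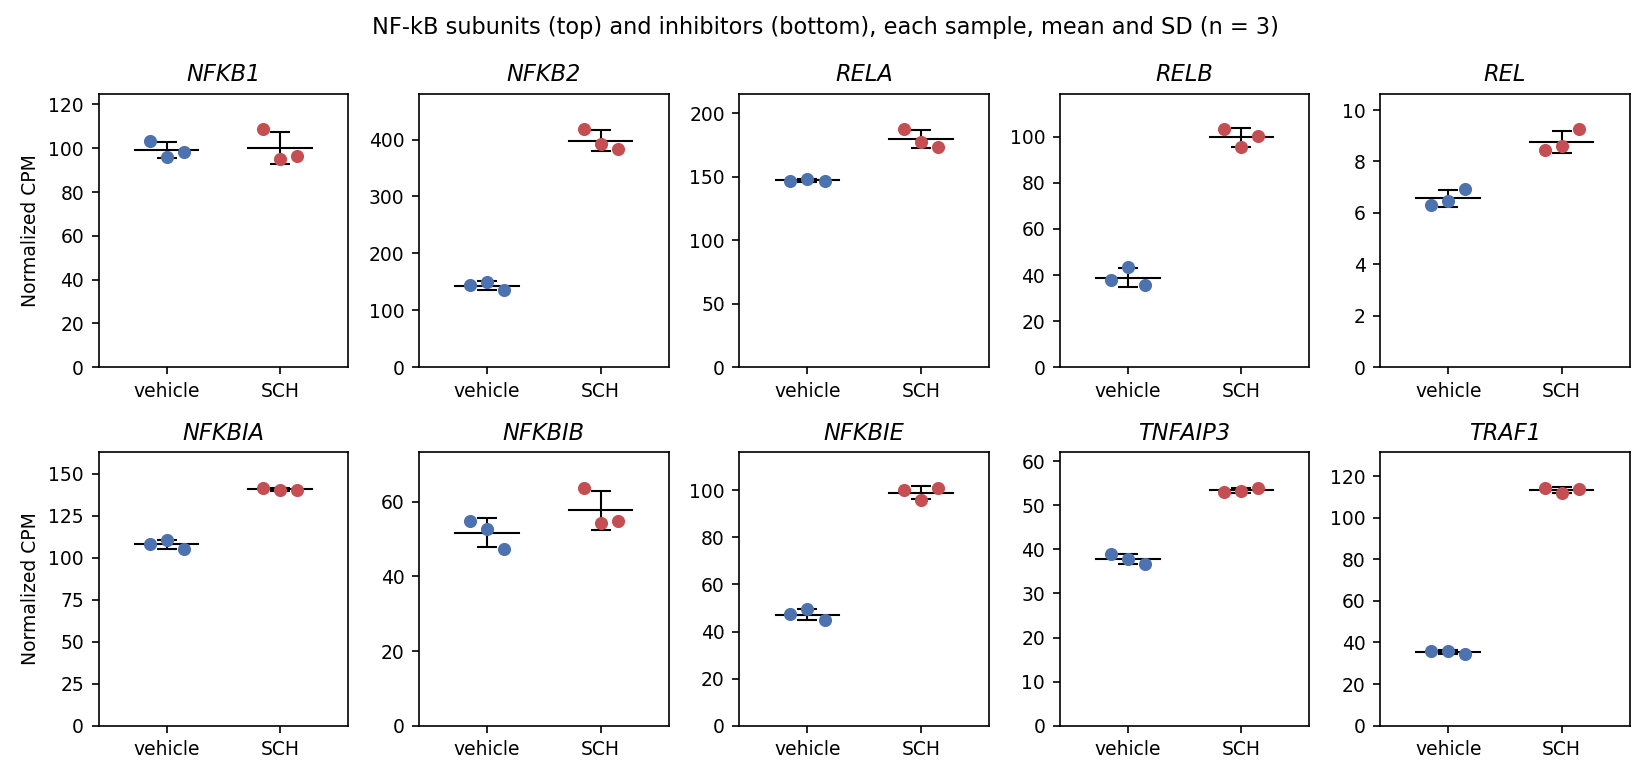
Normalized CPM (y axes, each from 0) of the 5 subunits (top) and of the inhibitors and TRAF1 (bottom) in each vehicle (blue) and SCH (red) sample, with the mean and SD of 3 samples in black. The groups are apart for 8 genes and overlap for NFKB1 and NFKBIB.

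Among the inhibitors, NFKBIA encodes IkB alpha, the classical feedback inhibitor of RELA dimers (ENSG00000100906, chr14:35401511-35404749, minus strand). Its normalized CPM was 108, 110 and 105 in vehicle and 142, 140 and 141 in SCH. All SCH samples were above all vehicle samples and close to each other, with an SD of 0.828 CPM. Its log2 fold change came to 0.38 ± 0.050 (SE, n = 3 per group), with an adjusted p of 5.59e-07.

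NFKBIE encodes IkB epsilon, another feedback inhibitor (ENSG00000146232, chr6:44258166-44265788, minus strand). It measured 47.5, 49.4 and 44.8 CPM in vehicle and 100.3, 95.8 and 101 CPM in SCH. The SCH samples all lay far above the vehicle samples. NFKBIE rose by a log2 fold change of 1.07 ± 0.059 (SE, n = 3 per group), a 2.10-fold rise, with an adjusted p of 3.56e-13. It was the only one of the 3 IkB genes with a log2 rise of at least 1.

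NFKBIB encodes IkB beta, which is degraded and resynthesised more slowly than IkB alpha (ENSG00000104825, chr19:38899700-38908893, plus strand). Its normalized CPM was 54.9, 52.9 and 47.3 in vehicle and 63.8, 54.3 and 55.0 in SCH. Of the 3 SCH samples, 2 were above every vehicle sample, and the third, at 54.3 CPM, was inside the vehicle range. On the log2 scale NFKBIB differed by 0.16 ± 0.071 (SE, n = 3 per group), with an adjusted p of 0.0627 and a 95% interval from 0.0097 to 0.30. The interval, like the unadjusted p of 0.0378 (edgeR), is for this gene alone, whereas the call uses the adjusted p. This call depended on single samples and on the scaling: without vehicle replicate 1, SCH replicate 2 or SCH replicate 3 the adjusted p was 0.0351, 0.0360 and 0.0415, and with scaling by library size only it was 0.00308. SIRT2, on the opposite strand, shares 1.72% of the exonic bases of NFKBIB. SIRT2 had 679 to 875 counts per vehicle sample and 1362 to 1384 per SCH sample.

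TNFAIP3 encodes A20, a ubiquitin-editing enzyme that shuts off signalling from TNF and Toll-like receptors (ENSG00000118503, chr6:137867188-137883312, plus strand). It measured 39.0, 37.9 and 36.7 CPM in vehicle and 52.9, 53.3 and 54.0 CPM in SCH. The values within each group were close together and the groups did not overlap. This corresponded to a log2 fold change of 0.50 ± 0.062 (SE, n = 3 per group), with an adjusted p of 3.63e-07. The antisense gene AL357060.1, with 9 to 19 counts per sample, overlaps 1.88% of its exonic bases.

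TRAF1 encodes an adaptor of TNF receptors that forms complexes with TRAF2 and the ligases BIRC2 and BIRC3, and it can act as a positive or a negative regulator (ENSG00000056558, chr9:120902393-120929173, minus strand). Its normalized CPM was 36.1, 35.9 and 34.3 in vehicle and 114, 112 and 114 in SCH. The SCH samples were nearly equal and far above all vehicle samples. The log2 fold change was 1.68 ± 0.057 (SE, n = 3 per group), a 3.20-fold rise, with an adjusted p of 8.97e-17. TRAF1 ranked 121st of the 14736 tested genes by log2 fold change, ahead of NFKB2 at 201, RELB at 258 and NFKBIE at 484. For each of the 8 genes whose groups were apart, the exact two-sided permutation test over samples gave p = 0.1, the smallest that 3 samples against 3 allow.

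**Figure D2:**
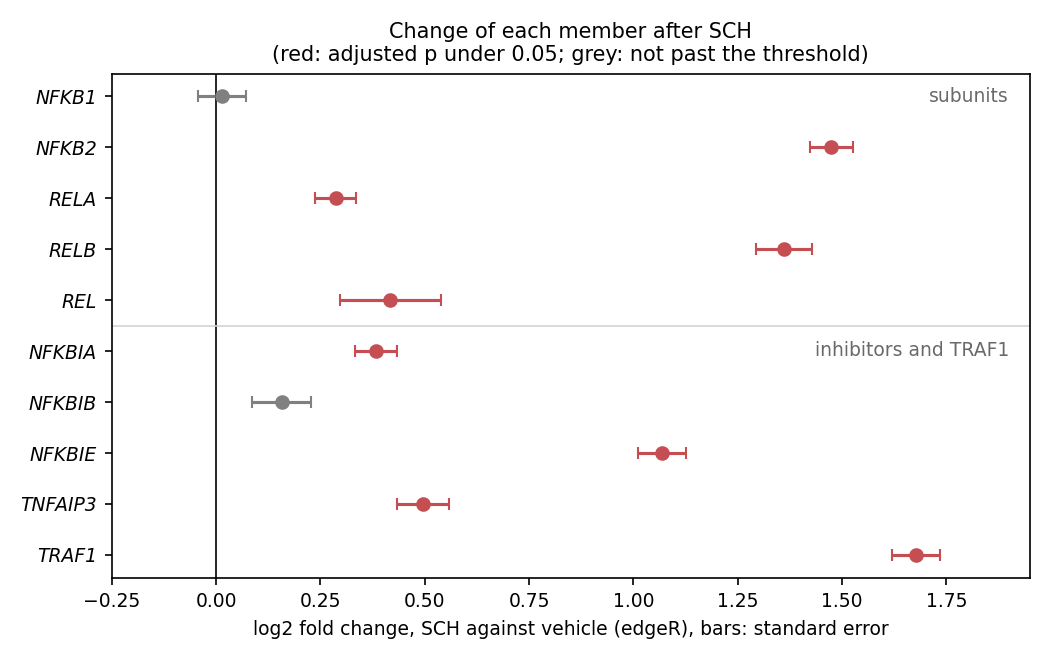
Log2 fold change of SCH against vehicle (x axis, edgeR) for each gene, with its standard error as the bar. Red genes had an adjusted p under 0.05 and grey genes did not: TRAF1 (1.68), NFKB2 (1.47), RELB (1.36) and NFKBIE (1.07) stand apart from the other members, which lie between 0.01 and 0.50.

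Levels can be compared between genes only per length, so the deposited FPKM was used for the make-up of the family. It equalled the count per kilobase and library total times 1 factor per sample, 0.995 to 1.01 in vehicle and 0.937 to 0.941 in SCH, so shares and ratios within a sample do not depend on that factor. In vehicle, NFKBIA was the most abundant at 43.9 FPKM, followed by NFKB2 (30.9), RELA (26.0), NFKBIB (21.5), NFKBIE (17.7), NFKB1 (15.3), RELB (12.4), TNFAIP3 (7.25), TRAF1 (5.31) and REL (0.481). No neighbours in this order had overlapping sample ranges. In SCH the order became NFKB2 (86.2 FPKM), NFKBIA (57.6), NFKBIE (37.3), RELA and RELB (both 31.9), NFKBIB (24.1), TRAF1 (17.1), NFKB1 (15.5), TNFAIP3 (10.3) and REL (0.646). Here the ranges of RELA and RELB overlapped, and so did those of TRAF1 and NFKB1. In FPKM, NFKB2 thus took the first place from NFKBIA, and RELB came level with RELA. The length behind these FPKM counts all annotated exonic bases of a gene, and the order between genes rests on it. In mean normalized CPM, RELA (180) was above RELB (99.7) in SCH. In vehicle, RELA (147) and NFKB2 (143) were above NFKBIA (108) in mean normalized CPM.

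The subunit transcripts shifted toward NFKB2 and RELB. NFKB2 held 36.6%, 36.8% and 35.5% of the summed FPKM of the 5 subunits in the vehicle samples and 51.9%, 52.3% and 51.3% in the SCH samples. RELB went from a mean of 14.5% ± 1.07 to 19.2% ± 0.596 (SD, n = 3), while RELA went from 30.6% ± 0.878 to 19.2% ± 0.193 and NFKB1 from 18.0% ± 0.932 to 9.34% ± 0.299. The shares of NFKB1 and RELA were lower although their levels were not, because the sum of the 5 subunits went from 85.1 ± 2.86 to 166 ± 7.66 FPKM. The ratio of NFKB2 to NFKB1 was 1.96, 2.17 and 1.92 in vehicle and 5.37, 5.76 and 5.54 in SCH. The ratio of RELB to RELA was 0.463, 0.525 and 0.436 in vehicle and 0.992, 0.966 and 1.04 in SCH. The groups were apart for both ratios. Within the non-canonical pair, the ratio of NFKB2 to RELB was 2.50 ± 0.148 in vehicle and 2.70 ± 0.107 in SCH, and the groups overlapped.

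The summed level of the 3 IkB genes differed less between the groups than that of the 5 subunits, of which NFKB2 was the largest part. Gene by gene, the median log2 fold change was 0.38 for these 3 IkB genes, of which 2 rose, and 0.42 for the 5 subunits, of which 4 rose. With TNFAIP3 and TRAF1 added to the IkB genes it was 0.50, and 4 of 5 rose. The summed FPKM of NFKBIA, NFKBIB and NFKBIE went from 83.1 ± 3.41 to 119 ± 3.49 (SD, n = 3). Divided by the summed FPKM of the 5 subunits, it was 0.990, 0.975 and 0.966 in the vehicle samples and 0.702, 0.713 and 0.733 in the SCH samples, with no overlap. Among the 3 IkB genes the share of NFKBIE went from 21.3% ± 0.351 to 31.3% ± 0.666, and that of NFKBIA from 52.9% ± 1.01 to 48.4% ± 1.01. These shares and ratios rest on the annotated exonic lengths and are descriptions of transcript levels with no test. The genes of p100 and p105, which also inhibit NF-kB dimers, are counted as subunits.

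**Figure D3:**
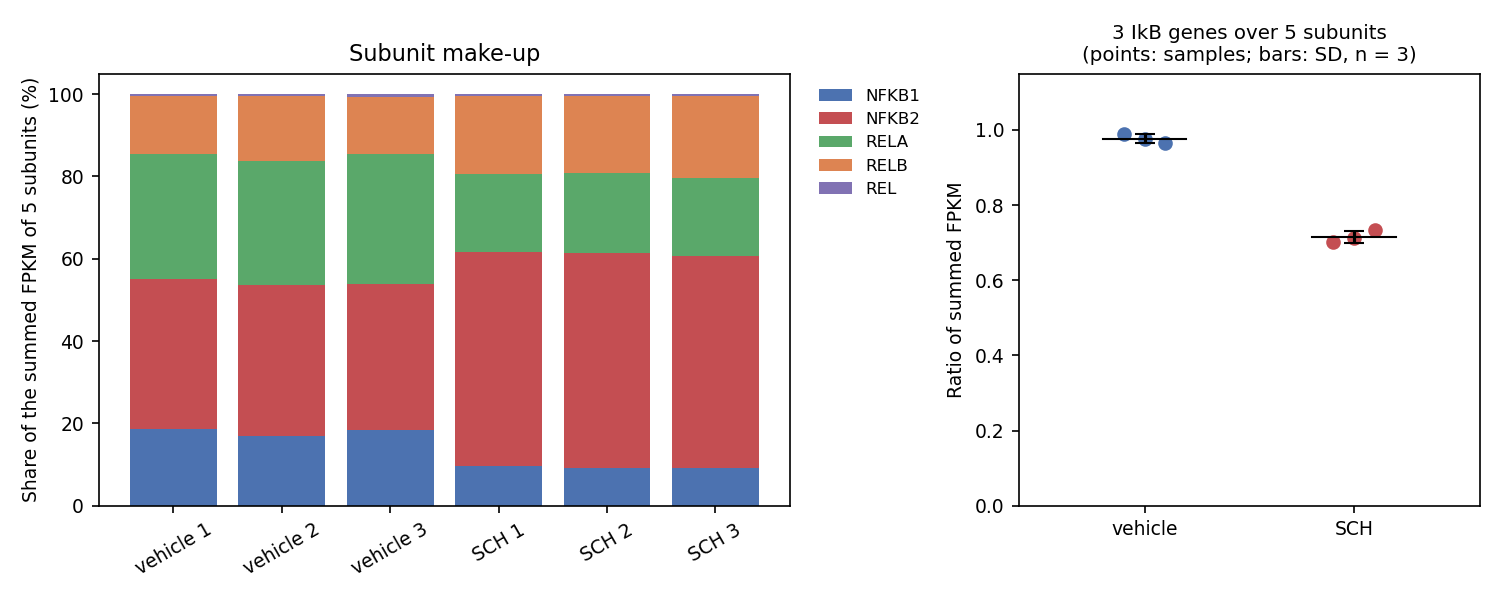
Left, share of the summed FPKM of the 5 subunits (y axis, %) held by each subunit in every sample. Right, summed FPKM of NFKBIA, NFKBIB and NFKBIE over that of the subunits per sample, with mean and SD: NFKB2 holds about 36.3% in vehicle and 51.9% in SCH, and the ratio is 0.977 in vehicle and 0.716 in SCH.

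The rest of the pathway was described with 7 further lists, holding 120 genes, of which 99 were tested. Of these, 63 rose, 15 fell and 21 did not pass the threshold, with a median log2 fold change of 0.38. All counts use the same edgeR fit as the members, and the share of all tested genes that rose was 29.3%. The members and the 7 lists were all chosen with earlier results of these data known. Their counts and directions beside that share are therefore descriptions and not independent evidence.

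Of 13 ligands, 5 were tested, 2 rose and 1 fell. IL1B, the inflammatory cytokine interleukin 1 beta, went from 18.6 ± 1.18 to 30.6 ± 3.15 CPM (SD, n = 3; log2 fold change 0.72, adjusted p 1.65e-07). IL18, a cytokine of the same family, rose by 0.56 (adjusted p 9.42e-08). TNFSF12, the ligand TWEAK, was lower by a log2 value of -0.29 (adjusted p 0.0465), and 33.2% of its exonic sequence is shared with other genes. This call was lost in 8 of 15 other settings, among them DESeq2 (adjusted p 0.113) and the removal of any 1 sample other than SCH replicate 3 (adjusted p 0.0676 to 0.166). TNF itself was too low to test, with 5, 3 and 7 counts in vehicle and 10, 6 and 10 in SCH. The other untested ligands were LTA with 2 to 7 counts per sample, LTB with 3 to 11, EDA with 5 to 14, TNFSF14 with at most 3, and TNFSF11, CD40LG and IL33 with 0.

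Of 22 receptors, 15 were tested, 9 rose and 2 fell. TLR1 and TLR2, receptors for bacterial lipopeptides, rose by 1.27 ± 0.41 (SE; adjusted p 0.00997) and 1.10 ± 0.29 (SE; adjusted p 0.00219), both from under 1 CPM in vehicle. The call of TLR1 was lost without SCH replicate 2 (adjusted p 0.0796) or without vehicle replicate 3 (adjusted p 0.0538), and without vehicle replicate 1 its log2 fold change was 1.88. On the log2(FPKM + 1) scale the differences were 0.18 for TLR1 and 0.21 for TLR2. IL1R1, the signalling receptor for interleukin 1, went from 8.21 ± 0.881 to 16.3 ± 0.895 CPM (SD, n = 3), a log2 fold change of 0.99 (adjusted p 3.25e-08). On the log2(FPKM + 1) scale IL1R1 differed by 0.61. The fallers were LTBR, the lymphotoxin beta receptor of the non-canonical pathway, at -0.20 (adjusted p 0.00213), and TNFRSF1A, the main TNF receptor, at -0.15 (adjusted p 0.0137). With scaling by library size only, neither passed the threshold (adjusted p 0.113 and 0.441), and TNFRSF1A also failed without vehicle replicate 1, SCH replicate 2 or SCH replicate 3 (adjusted p 0.0731, 0.0548 and 0.0524). Untested receptors were TNFRSF13C with 4 to 11 counts per sample, NOD2 with 1 to 8, NGFR with at most 5, IL18R1 with at most 4, EDAR and EDA2R with at most 2, and TLR9 with at most 1.

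All 19 adaptors and ubiquitin ligases were tested; 12 rose and 4 fell. BIRC3, or cIAP2, a ligase that with TRAF2 keeps NIK levels low, went from 86.7 ± 3.83 to 189 ± 2.96 CPM (SD, n = 3; log2 fold change 1.12, adjusted p 1.75e-14). IRAK2, a kinase-like adaptor of interleukin 1 and Toll-like receptors, rose by 0.90 (adjusted p 5.22e-11), and TICAM1, the adaptor TRIF, by 0.80 (adjusted p 6.06e-08). IRAK1 had a log2 fold change of -0.50 (adjusted p 5.02e-09), TRAF2 of -0.45 (adjusted p 1.36e-06) and CARD10, a scaffold of the BCL10 and MALT1 complex, of -0.37 (adjusted p 0.000838). TRAF1 and BIRC3 were thus higher in the same samples in which TRAF2, the protein they bind, was lower, at 55.6, 57.2 and 53.8 CPM in vehicle and 41.7, 39.1 and 40.9 CPM in SCH.

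Of 11 kinases and IKK subunits, all tested, 8 rose and 1 fell. MAP3K8, the kinase TPL2 that p105 binds, went from 8.78 ± 1.62 to 16.7 ± 1.57 CPM (SD, n = 3; log2 fold change 0.93, adjusted p 4.88e-07). IKBKG, the regulatory IKK subunit NEMO, rose by 0.62 (adjusted p 3.56e-07) and TAB3, a partner of the kinase TAK1, by 0.57 (adjusted p 8.01e-07). TAB1 had a log2 fold change of -0.22 (adjusted p 0.0178), a call lost with library size only (adjusted p 0.204), with no filter (adjusted p 0.0599), and without SCH replicate 1 or 3 (adjusted p 0.0769 and 0.0626). Of the 3 other IkB proteins, NFKBIZ (0.63, adjusted p 2.14e-06) and BCL3 (0.58, adjusted p 9e-05), both nuclear cofactors of p50 and p52, rose, and NFKBID (0.04, adjusted p 0.840) did not pass.

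Among 16 other negative regulators, all tested, 11 rose and 2 fell. The deubiquitinases OTUD7B and CYLD went from 50.6 ± 1.8 to 86.5 ± 3.21 CPM and from 113 ± 5.97 to 187 ± 6.45 CPM (SD, n = 3), with log2 fold changes of 0.77 (adjusted p 7.95e-11) and 0.73 (adjusted p 4.22e-11). TAX1BP1, an adaptor of A20, rose by 0.73 (adjusted p 4.62e-11). COMMD1, which promotes removal of RELA from chromatin, had a log2 fold change of -0.94 (adjusted p 2.43e-06), although 38.5% of its exonic sequence is shared with other genes, and PDLIM2, a ligase for nuclear RELA, of -0.44 (adjusted p 0.000202). On the log2(FPKM + 1) scale PDLIM2 differed by -0.26.

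Of 36 target genes, 30 were tested, 19 rose and 5 fell. Like the other lists, this list was drawn up with earlier results of these samples known, so its direction is not independent evidence. BCL2A1, an anti-apoptotic BCL2 relative, went from 1.33, 1.11 and 0.900 CPM in vehicle to 6.71, 6.33 and 7.15 CPM in SCH (log2 fold change 2.58 ± 0.20 (SE), adjusted p 9.01e-11). CCL20, a chemokine for CCR6-bearing cells, went from 3.86 ± 0.442 to 15.3 ± 1.43 CPM (SD, n = 3; log2 fold change 1.98, adjusted p 6.01e-12). JUNB, an AP-1 subunit, rose by 1.70 (adjusted p 3.66e-16), and another gene covers 14.2% of its exonic sequence. The largest falls were those of the chemokine CCL2 (-0.96, adjusted p 0.0127, on about 1.70 CPM in vehicle), the cyclin CCND1 (-0.83, adjusted p 6.89e-13) and the macrophage growth factor CSF1 (-0.67, adjusted p 3.44e-10). On the log2(FPKM + 1) scale BCL2A1 differed by 1.82 and CCL2 by -0.36. CCL2 lost its call without SCH replicate 1 (adjusted p 0.0721) or vehicle replicate 3 (adjusted p 0.0686). The target genes therefore did not all move one way. CXCL8 and IL6 were picked out after their values were seen, as the best known cytokine targets in this line: CXCL8 rose by 1.39 (adjusted p 2.13e-15), whereas IL6 stood at 17.7, 19.3 and 17.5 CPM in vehicle and 18.6, 23.0 and 20.9 CPM in SCH (0.20, adjusted p 0.0636). Of the exonic sequence of IL6, 20.7% is shared with other genes. Untested targets were CCL5 with 2 to 10 counts per sample, CXCL10 and MMP9 with at most 3, and CXCL6, VCAM1 and SELE with at most 1.

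**Figure D4:**
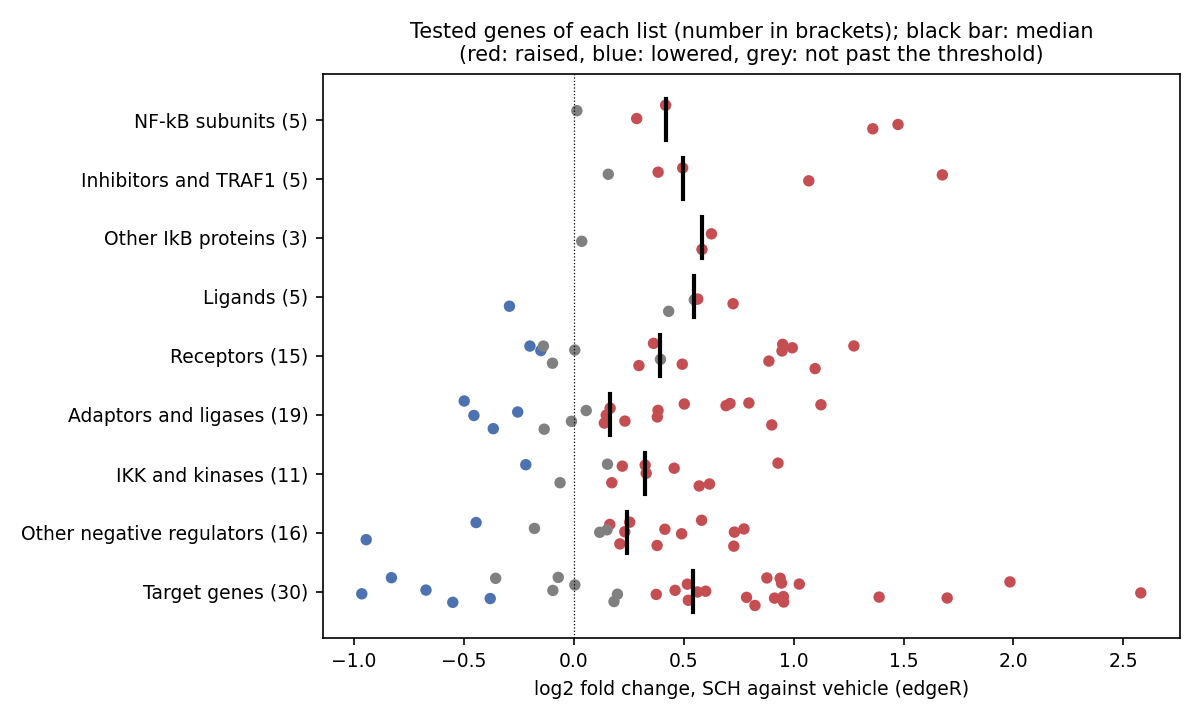
Log2 fold change of SCH against vehicle (x axis, edgeR) of each tested gene, by list (y axis, number tested in brackets); red genes rose, blue genes fell, grey genes did not pass the threshold, and the black bar is the list's median. The points are shifted vertically only to separate them; list medians run from 0.17 for the adaptors and ligases to 0.58 for the other IkB proteins.

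The 8 raised members had the same direction and call under each of the 15 other settings tried, which changed the normalization, the filter on low counts, the tool, the unit or the samples. Their log2 fold changes ranged from 1.52 to 1.78 for TRAF1, from 1.44 to 1.58 for NFKB2, from 1.30 to 1.46 for RELB and from 1.03 to 1.17 for NFKBIE.

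**Figure D5:**
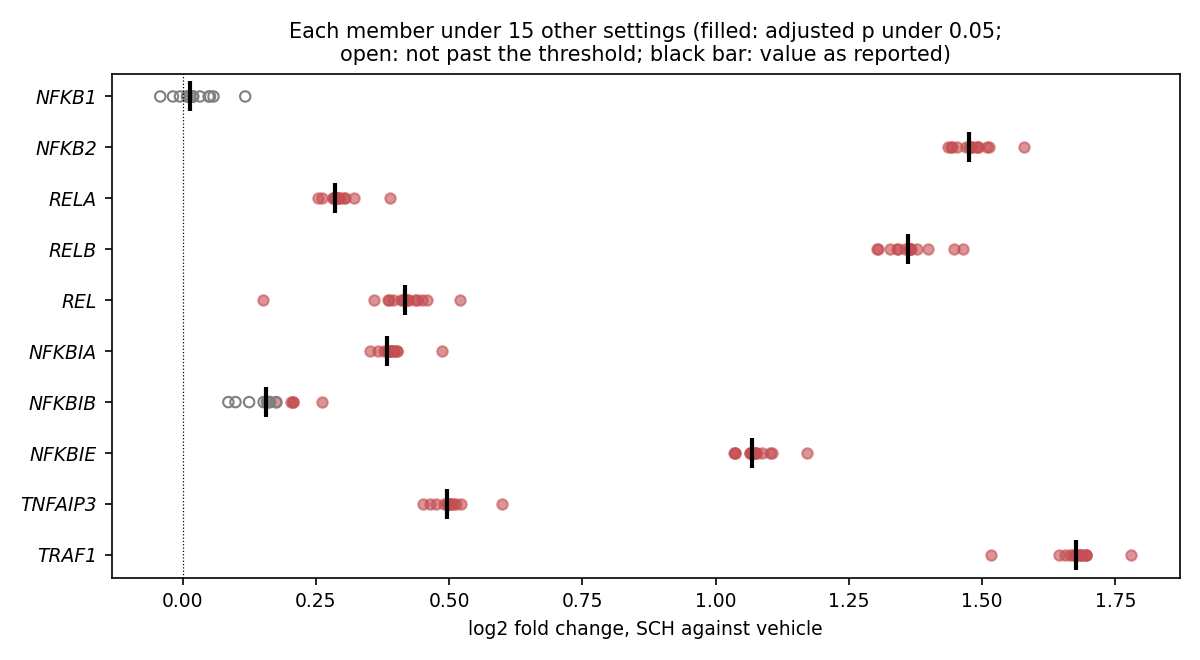
Log2 fold change of each member (x axis) under 15 other settings, each point 1 setting, filled where the adjusted p was under 0.05, with the reported value as a black bar. The 8 raised members stay above 0 with every point filled, NFKB1 lies on both sides of 0 with none filled, and NFKBIB is filled in 6 settings.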

How the data were processed

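RNA was measured in 6 MDA-MB-231 samples (3 vehicle, 3 SCH). The authors deposited raw counts per gene and, per sample, FPKM. The submitters' processing notes name CASAVA 1.8, HISAT2 2.0.5, featureCounts 1.5.0-p3, DESeq2 1.20.0 and GRCh38. The strand setting of the counting is not given in the sources used here. It is therefore not known whether reads in the bases shared with an antisense gene were assigned by strand. Counts were fitted with edgeR 4.0.16 (TMM, filterByExpr, quasi-likelihood test, adjusted p under 0.05 over 14736 genes). The fit was also run on simulated counts with far fewer changed genes than here, so that check does not test the scaling in these data. Normalized CPM are TMM-scaled. The alternatives were other scalings, filters, a stricter threshold of 0.01, DESeq2 1.42.0, limma 3.58.1 on log2(FPKM + 1) and log2(FPKM + 0.1), a replicate block, and each replicate left out. The members, lists and tests were chosen with earlier results of these data known. All 10 members were named, plus, per list, up to 3 changed genes with the largest rise and 3 with the largest fall, every untested gene, and genes sharing exons with a member. The level of 1 marker gene is not reported here. Exon overlap came from GENCODE 29, which matched all 58735 gene IDs.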

Additional observations from a re-analysis of the deposited data

How the results depend on the processing

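The 8 raised members and 25 of the 31 pathway genes named by the stated rule had the same sign and the same call in all 15 alternatives. CXCL8, IL6 and NFKBID, named outside that rule, were not run under the alternatives, and neither were the marker genes of the line and of other cell types. The number of changed genes ran from 7026 (threshold 0.01) to 8814, and from 7808 to 8489 with 1 sample left out, where 8 or 9 members were called. NFKB1 had a log2 fold change of -0.018 with upper-quartile scaling, -0.0051 without vehicle replicate 2 and -0.042 without SCH replicate 1, with a leave-one-out range of -0.042 to 0.058 and no adjusted p under 0.05. Its highest value was 0.12, with library size only (edgeR adjusted p 0.0883). NFKBIB passed the threshold with library size only (0.26), with no filter on low counts (0.18) and with the replicate block (0.16), and its leave-one-out range was 0.086 to 0.21. Library size only raised the share of changed genes that were higher from 49.9% to 62.6% and moved the median log2 fold change of all genes to 0.099. The cause of these changes was not tested. With normalized CPM in place of FPKM, NFKB2 held 32.9% of the subunit level in vehicle and 50.6% in SCH, and the IkB ratio was 0.475 and 0.379, since CPM does not divide by length. The named pathway genes that lost their call somewhere, always with the same sign, were TNFSF12, TNFRSF1A, TAB1, LTBR, TLR1 and CCL2.

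No clear pairing by replicate number was seen. The deviations of same-numbered samples from their group means correlated at 0.060, -0.028 and 0.042, and not every sample correlated best with its own number. With 3 samples per group, such correlations cannot exclude a pairing. The fit with the replicate block called 8705 genes against 8650 without it, and 9 members against 8, the added one being NFKBIB.

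Low counts limited TNF, TLR1 and CCL2, and 21 genes of the pathway lists could not be tested at this depth, besides the untested marker genes.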

Other observations

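Of the 7 luminal or HER2 markers examined, 4 were tested, and 2 rose and 2 fell, where 58.7% of all tested genes changed. FOXA1, a pioneer factor of luminal cells, went from 4.10 ± 0.650 to 9.18 ± 1.11 CPM (SD, n = 3; log2 fold change 1.16, adjusted p 4.41e-07), and ERBB2 rose by 0.29 (adjusted p 0.000164). GATA3, another luminal factor, went from 13.7 ± 0.619 to 7.91 ± 1.25 CPM (log2 fold change -0.79, adjusted p 4.36e-06) and EPCAM had a log2 fold change of -0.52 (adjusted p 9.22e-05).

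PTPRC, the pan-leukocyte phosphatase CD45, had a log2 fold change of -2.75 ± 0.37 (SE; adjusted p 8.80e-07), and CD14 (0.27, adjusted p 0.544) and CSF1R (-0.43, adjusted p 0.248), the other tested leukocyte markers, did not pass. Of the 5 tested mesenchymal markers, VIM, AXL, CAV1 and MSN fell, with a list median of -0.56, and CD44 (0.03, adjusted p 0.547) did not pass. These genes came from lists drawn up with earlier results of these data known.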
